A study of Mus musculus with 12 samples.

Results

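Sugct (ENSMUSG00000055137, protein-coding, minus strand of chromosome 13 from 16857472 to 17695553, GRCm38) was described in newborn mouse germ cells together with the transposable element (TE) copies listed inside it. It is 1 gene of the 35666 in the gene table, and 188 of the 298593 copies in the TE table lie within its bounds. The gene was taken by its symbol, and a stretch from 17520071 to 17542922, called the stretch here, was set apart because copies in it had fewer reads in Morc1 knockout libraries. It holds 25 of the 188 copies, and the other 163 are called the rest of Sugct. Gene, stretch and rest were thus chosen on the knockout contrast, so their values are a description and carry no test. The wording of copies lost within Sugct describes only the stretch, which was chosen for it. The summed copies of the stretch were 5.06-fold lower in knockout, with reads still present in every library. The sums of the rest of Sugct overlapped between genotypes. The mean of Sugct itself was higher in knockout, and there too the genotypes overlapped.

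RNA was sequenced from male germ cells of the testis at postnatal day 0 (P0), at the stage called gonocytes. The control group was Morc1 (+/-), heterozygous (het), and the compared group Morc1 (-/-), knockout (KO), with 3 libraries each. Mice of both groups carried the Mvh-Venus transgene, a reporter driven from the germ cell gene Mvh (Ddx4). The het cells still carry 1 Morc1 allele and are not wild type, and whether animals were pooled is not given in the sources used here. The series also lists 6 samples at postnatal day 3, which were not analysed here.

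SUGCT is a mitochondrial enzyme, succinyl-CoA:glutarate-CoA transferase. It moves coenzyme A from succinyl-CoA to free glutarate, an intermediate in the breakdown of lysine and tryptophan, so that glutaryl-CoA can be oxidised by GCDH. Loss of function of the human gene underlies glutaric aciduria type III. MORC1 is an ATPase of the MORC family found in male germ cells, where it is known to take part in silencing TEs, the mobile repeats that make up much of the mouse genome. Male germ cells rebuild DNA methylation, erased earlier in fetal life, at the gonocyte stage, the period in which that silencing is set up.

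The gene spans 838 kb, and the annotation (GENCODE release M21) gives it 5 transcripts, of which Sugct-201, with 14 exons, is used here to number exons and introns. The stretch is 22.9 kb long and lies in intron 8, between 152 and 175 kb downstream of the start of Sugct-201. Intron 8 is 102 kb long, and the stretch ends 11.4 kb from exon 8 and 67.5 kb from exon 9. No annotated exon of any gene overlaps it. Of its 25 copies, 19 lie on the plus strand, antisense to Sugct, and 6 on the minus strand, in the sense of Sugct. The table gives position and strand but no family name, so the kind of element is not known here.

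The bases before the RefSeq start of the gene, which lies outside the stretch, are shown. They lie within the annotated bounds of Sugct, which run to 17695553. The sequence of the copies in the stretch was not available here and is not printed. The 250 bases before the RefSeq start of Sugct (GRCm38.p6, chr13:17694766-17695015, minus strand), with GGGCGG, the core of a GC box, in capitals, read

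Sugct: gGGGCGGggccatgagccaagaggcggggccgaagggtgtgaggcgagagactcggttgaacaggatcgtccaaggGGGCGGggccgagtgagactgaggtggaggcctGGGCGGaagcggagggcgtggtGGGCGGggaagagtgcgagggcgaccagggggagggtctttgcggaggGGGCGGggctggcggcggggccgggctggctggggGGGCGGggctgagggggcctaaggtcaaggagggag

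The window has 74% G and C and 20 CpG dinucleotides. It holds 6 matches to GGGCGG over both strands, and no match to TATAAA or CCAAT. Over both strands of 32851 promoter windows of this length, 32.7% hold at least 1 GGGCGG, 0.886% hold at least as many as Sugct, 12.4% hold TATAAA and 33.8% hold CCAAT. Mplkip starts on the opposite strand at 17695192, so the window lies between the starts of Sugct-201 and Mplkip. A match is a description of the letters only.

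The targeted gene checked the labels. Morc1, on chromosome 16, had 7248, 7485 and 4126 normalized counts (read counts divided by 1 size factor per library) in the het libraries (replicates 1 to 3, as in all such lists) against 1360, 1343 and 1794 in the KO libraries. KO lay wholly below het (log2 fold change -2.03, SE 0.27, limma adjusted p 0.0109; exact two-sided permutation p 0.1, the smallest that 3 against 3 can give). Limma no longer called it when het replicate 1 (adjusted p 0.0511), KO replicate 1 (0.101) or KO replicate 3 (0.0663) was left out, or without trend (0.0891). The gene table held 28363683 to 32816861 reads per library and the table of copies held 1974504 to 3703419. Nothing in the labels says that replicates came from separate animals, so p-values measure only the spread between these samples. Of the 11 germ cell markers none was at 0, with summed normalized counts of 132669 to 199294 in het and 143689 to 199408 in KO, and 0 were called with limma (0 with an unadjusted p under 0.05).

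Sugct was detected in every library, at low counts. Its normalized counts were 83.9, 86.0 and 149 in the het libraries against 130, 96.1 and 211 in the KO libraries, from 88 to 215 reads per library. The highest value was that of KO replicate 3 and the lowest that of het replicate 1, and the groups overlapped, because het replicate 3 lay above KO replicates 1 and 2. The means were 106 ± 37.1 in het and 145 ± 58.9 in KO (SD, n = 3). The fitted log2 fold change of KO against het was 0.42 (SE 0.40). Without KO replicate 3 it was 0.12 and without het replicate 3 it was 0.69. Per length of its annotated exons (3429 bp), Sugct had 1.04 ± 0.435 reads per kb per 1000000 reads counted in genes in het and 1.36 ± 0.511 in KO (SD, n = 3). One exon of Sugct-203 overlaps Mplkip on the opposite strand, and whether counting used strand is not given in the sources used here, so reads there cannot be assigned. In bulk RNA, fewer cells that express a gene and less RNA per cell cannot be told apart.

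**Figure D1:**
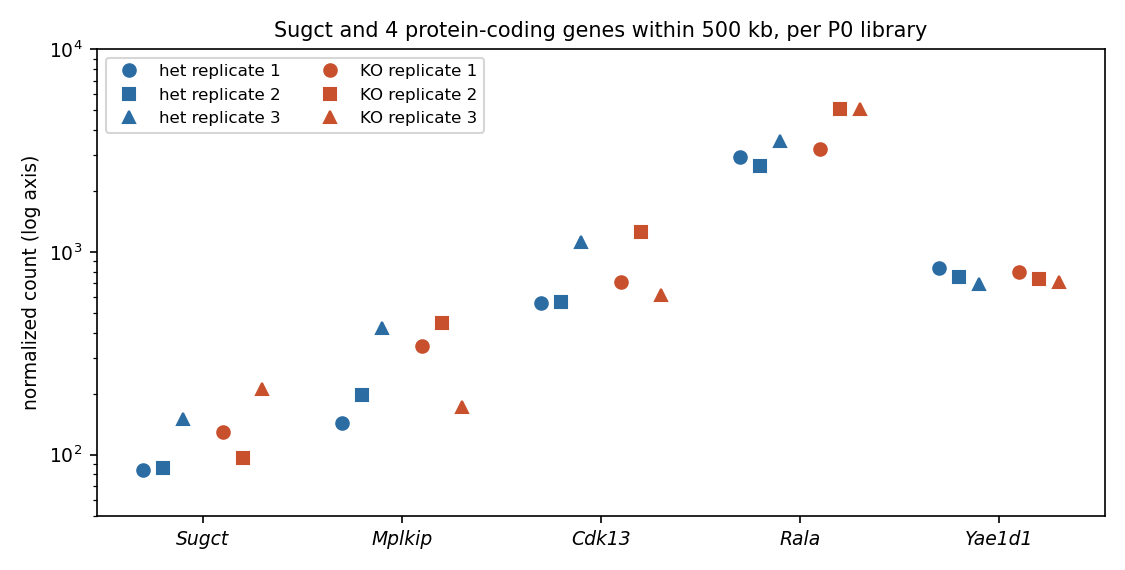
Normalized counts (log axis) of Sugct and of 4 protein-coding genes within 500 kb of it, one point per P0 library, het in blue and KO in orange. Within each of the 5 genes the values of the genotypes overlap.

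The neighbours gave a control chosen by position alone. The annotation places 38 other genes inside Sugct or within 500 kb of its ends. Of these, 25 are listed in the gene table and 12 had a mean of at least 10 normalized counts, the filter for testing. Limma called 0 of the 12 at an adjusted p under 0.05, where it called 0.473% of all genes tested (0.431% higher and 0.0423% lower). None had an unadjusted p under 0.05, and edgeR and DESeq2 also called 0. The neighbours had log2 fold changes from -0.67 to 0.89 with a median of 0.11, beside -0.02 for all genes.

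Mplkip, which encodes an M-phase-specific interactor of PLK1, had 144, 196 and 419 normalized counts in het and 345, 446 and 171 in KO (log2 fold change 0.38, SE 0.46, limma adjusted p 0.932). Cdk13, a cyclin-dependent kinase that acts on RNA polymerase II, had 558, 568 and 1125 in het against 707, 1259 and 616 in KO (log2 fold change 0.21, SE 0.36, limma adjusted p 0.951). In both genes het replicate 3 and KO replicate 2 held the highest values, and the groups overlapped. Rala, a small GTPase of the Ras superfamily, had 2943, 2650 and 3528 in het against 3208, 5097 and 5088 in KO. It had the smallest adjusted p of the 12 genes (log2 fold change 0.53, SE 0.24, limma adjusted p 0.738), and KO replicate 1 lay below het replicate 3.

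Yae1d1, named for its Yae1 domain, varied little, with 833, 756 and 692 normalized counts in het and 795, 734 and 711 in KO (log2 fold change -0.02, SE 0.22, limma adjusted p 0.993). The values overlapped between genotypes. Of the tested neighbours 7 are non-coding: Gm48621 (log2 fold change 0.89), 8430406P12Rik (0.18), Gm32699 (-0.62), Gm5628 (0.04), A930027P06Rik (0.58), Vdac3-ps1 (-0.11) and Gm6575 (-0.67). Vdac3-ps1, Gm5628 and Gm6575 are pseudogenes, for which reads shared with a near-identical gene cannot be assigned. Of 9 annotated genes that lie inside Sugct, 4 are listed and 0 reached a mean of 10.

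The copies of the stretch had fewer reads in KO. Their summed normalized counts were 2308, 1833 and 2320 in the het libraries against 433, 564 and 281 in the KO libraries. Each KO library lay under all het libraries, and the highest KO sum was under the lowest het sum by more than the range of either group. The means were 2154 ± 278 and 426 ± 142 (SD, n = 3), a log2 ratio of -2.34. Leaving out any 1 library kept this ratio between -2.59 and -2.11. Scaling TE reads by the size factors of the gene table, which moves the median of all tested copies from 0.03 to 0.34 on the log2 scale, gave -1.98.

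In the rest of Sugct the genotypes overlapped. Its 163 copies summed to 975, 927 and 2050 normalized counts in het and 1056, 1743 and 1180 in KO. Het replicate 3 was the highest library, and the means were 1317 ± 635 and 1326 ± 366 (SD, n = 3), a log2 ratio of 0.01. This ratio was 0.48 without het replicate 3, -0.24 without KO replicate 2 and 0.34 with the gene size factors. The stretch held 70.3, 66.4 and 53.1% of all counts on Sugct copies in the het libraries, against 29.1, 24.5 and 19.2% in the KO libraries.

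**Figure D2:**
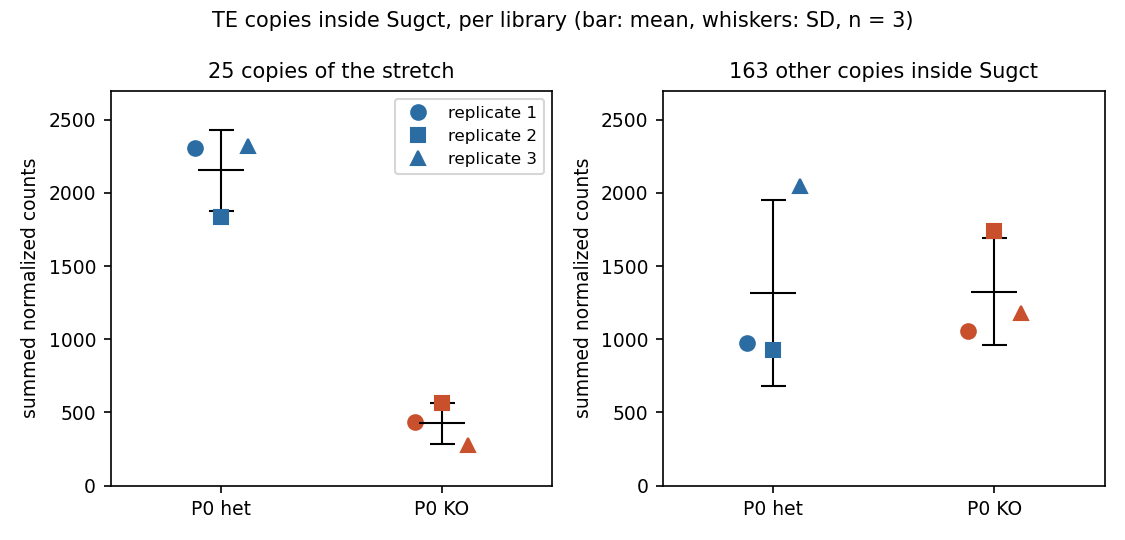
Summed normalized counts of the 25 copies of the stretch (left) and of the 163 other copies inside Sugct (right) in each P0 library; horizontal bars are means and whiskers SD (n = 3). On the left the KO libraries (281 to 564) lie below the het libraries (1833 to 2320), and on the right the genotypes overlap.

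Counted copy by copy, the stretch had 16 copies with a mean of at least 10, and 11 of them (68.8%) were called lower by limma at an adjusted p under 0.05, where 0.735% of all tested copies were. None was called higher by limma, edgeR or DESeq2 (0 with an unadjusted p under 0.05), where 15.6% of all tested copies were called higher by limma. Nothing is read from these shares, because the stretch was chosen for them. The median log2 fold change of the 16 was -2.46, beside 0.03 for all tested copies. In 14 of the 16 all KO libraries lay below all het libraries, as in 7.58% of all tested copies. The mean was lower in KO in all 25 listed copies, including the 9 that were not tested. By strand, 9 of 11 tested antisense copies and 2 of 5 tested sense copies were called lower. The summed counts differed alike on both strands, with log2 ratios of -2.33 for antisense and -2.36 for sense copies. Without het replicate 1 limma called 7 of the 16 lower. Of the 11, those starting at 17520071, 17523017, 17524828, 17526727 and 17538250 lost their call when at least 1 of the 6 libraries was left out.

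The reads in het were densest at the end of the stretch farthest from the start of Sugct. Density is given on the scale used for Sugct above, reads per kb of copy per 1000000 gene reads. Reads were divided by the length of the copy, without correction for reads that run past its ends. Densities of short copies are therefore not strictly comparable with those of long ones. A plus-strand copy of 82 bp (17521051 to 17521132) had the highest density of the stretch, at 46.1 in het and 7.30 in KO. Its normalized counts were 169, 121 and 85.3 in het against 20.98, 16.3 and 10.3 in KO. The lowest het value lay far above the highest KO value.

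A plus-strand copy of 532 bp (17521284 to 17521815) carried the most counts, 616, 479 and 377 in het against 86.8, 89.0 and 62.4 in KO. The groups lay far apart (log2 fold change -2.60, SE 0.36), and its density was 28.0 in het and 5.73 in KO. On the other strand, a copy of 228 bp (17520546 to 17520773) had 307, 221 and 132 in het against 61.0, 37.2 and 9.41 in KO (log2 fold change -2.84, SE 0.61). At the far edge, a copy of 166 bp, also on the minus strand (17520071 to 17520236), had 144, 110 and 49.8 in het against 26.7, 16.3 and 5.13 in KO (log2 fold change -2.71, SE 0.63). In each of the 4 copies het replicate 3 was the lowest het library, and no KO library reached it.

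Toward the start of Sugct a row of plus-strand copies followed. A copy of 298 bp (17522364 to 17522661) had the most negative log2 fold change of the stretch (-3.88, SE 0.72), with 45.4, 47.1 and 50.8 in het against 6.68, 1.55 and 0.855 in KO, the KO values resting on 7, 2 and 1 reads. The adjacent copies of 459 bp (17523017 to 17523475) and 817 bp (17523476 to 17524292) had log2 fold changes of -2.00 (SE 0.44) and -2.33 (SE 0.43). The 817 bp copy had 180, 185 and 385 in het against 41.0, 64.2 and 36.8 in KO, with het replicate 3 highest and no overlap. A copy of 343 bp (17524293 to 17524635) was not called (log2 fold change -2.92, SE 1.03). Its means were 19.5 in het and 1.93 in KO.

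A copy of 744 bp (17524828 to 17525571) had 85.4, 56.1 and 251 in het against 15.3, 34.8 and 0 in KO (log2 fold change -3.69, SE 1.09). Het replicate 3 stood far above the other het libraries and KO replicate 3 had no read. The 1019 bp copy that adjoins it (17525572 to 17526590) was steadier, at 107, 110 and 174 in het against 25.8, 36.4 and 12.8 in KO (log2 fold change -2.41, SE 0.47). A copy of 2162 bp (17526727 to 17528888) had 41.1, 58.3 and 48.9 in het against 9.54, 23.2 and 5.99 in KO (log2 fold change -2.04, SE 0.57). No KO library reached a het library in either of the latter.

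**Figure D3:**
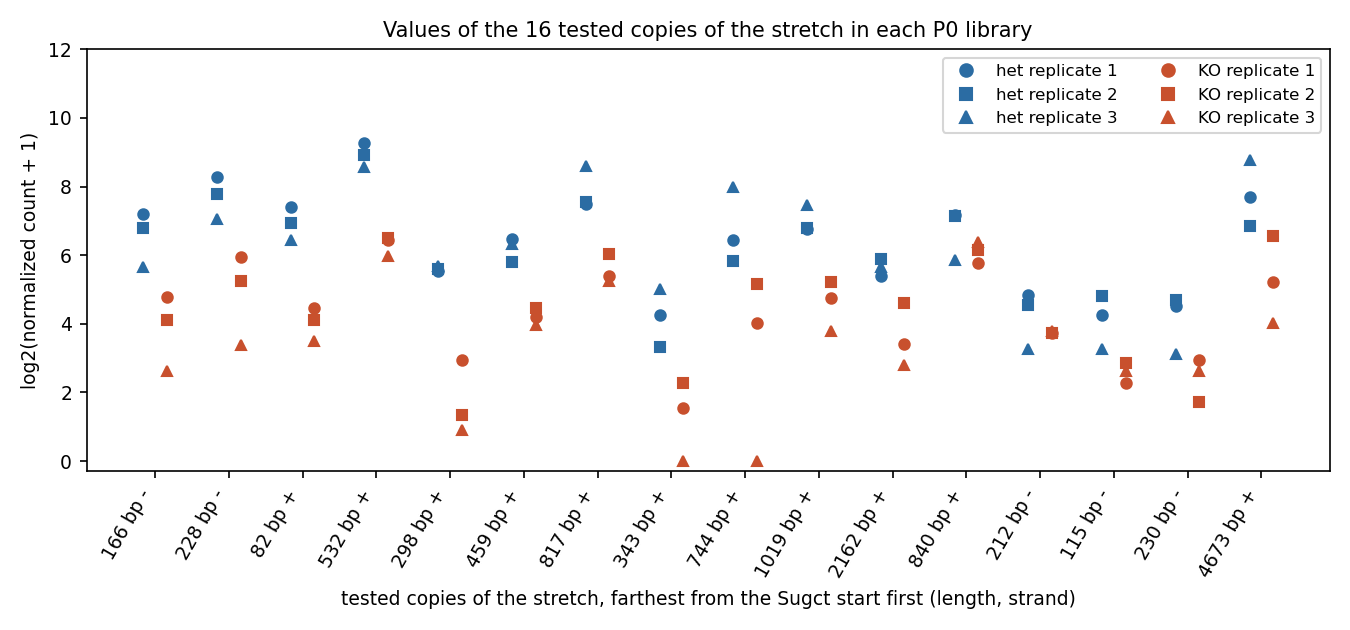
log2(normalized count + 1) of the 16 tested copies of the stretch in each P0 library, ordered from the end farthest from the Sugct start, with length and strand on the axis (plus is antisense to Sugct). In 14 of the 16 copies the 3 orange KO points lie below the 3 blue het points, and the exceptions are the copies of 840 bp and 212 bp.

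In the middle of the stretch 4 tested copies differed less, and none of them was called lower by limma. A copy of 840 bp (17531436 to 17532275, plus strand) had 143, 140 and 56.5 in het against 53.4, 70.4 and 82.1 in KO (log2 fold change -0.62, SE 0.45). KO replicates 2 and 3 lay above het replicate 3, so the genotypes overlapped. The copy of 212 bp beside it (17532276 to 17532487, minus strand) overlapped likewise, with 27.4, 22.4 and 8.63 in het against 12.4, 12.4 and 12.8 in KO (log2 fold change -0.46, SE 0.63). On the minus strand, copies of 115 bp (17532699 to 17532813) and 230 bp (17532964 to 17533193) had log2 fold changes of -1.53 (SE 0.75) and -1.68 (SE 0.81), and in both each KO library lay under all het libraries.

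The longest copy closed the stretch at its near edge. It is 4673 bp long, on the plus strand (17538250 to 17542922), and had 205, 114 and 436 in het against 36.2, 92.9 and 15.4 in KO (log2 fold change -2.50, SE 0.64). The gap between the lowest het library and the highest KO library was small beside the spread within het. The direction of this difference is opposite to that of most copies over 5 kb, which are somewhat longer than this one. Of those, 58.3% were called higher by limma and 0.208% lower, with a median log2 fold change of 2.44. Of tested copies up to 5 kb, the class this copy falls in, 7.14% were called higher and 0.839% lower.

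The het libraries did not all rank the copies alike. In 8 of the 16 tested copies het replicate 3 was the lowest het library, and their sums were 1447, 1145 and 726 in het against 272, 250 and 192 in KO. In 6 it was the highest, with sums of 640, 522 and 1329 in het against 127, 234 and 65.9 in KO. These sets were chosen after their values were seen. In both, every KO sum was below every het sum.

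Het replicate 3 also stood apart in markers of Leydig cells, the steroid-producing cells of the testis. The 5 markers summed to 776 and 1079 normalized counts in het replicates 1 and 2, to 24921 in het replicate 3 and to 510 to 1075 in KO. None of the 5 was at 0 in a group, and limma called 0 of them (0 with an unadjusted p under 0.05). All 5 had negative log2 fold changes (-3.44 to -0.93, median -1.99). The 7 markers of Sertoli cells, which nurse germ cells, summed to 24359, 17536 and 37259 in het and 12581 to 18099 in KO, and none was at 0. Limma called 0 of the 7 and 3 had an unadjusted p under 0.05, all 7 with negative log2 fold changes. Leydig and Sertoli sums both overlapped between genotypes, and het replicate 3 was the highest library in both. In the germ cell markers het replicate 3 had the lowest sum of the 6 libraries (132669). Without het replicate 3 the summed stretch had a log2 ratio of -2.28 and 9 copies were called lower. The 4 markers of endothelial cells, which line blood vessels, had sums of 2114 to 2739 in het and 3315 to 3774 in KO, which did not overlap. Limma called 0 of them and 1 had an unadjusted p under 0.05, and none was at 0. The sums of 4 peritubular myoid markers (3060 to 3852 in het, 3410 to 4090 in KO) and of 5 macrophage and blood markers (1344 to 1466 and 1260 to 1713) overlapped. The part of RNA from these other cells in the values of the stretch was not tested.

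The edges of the stretch were set on these values, and the copies beside them were as follows. Beyond the far edge, a copy of 343 bp (17519728 to 17520070, plus strand) ends at the base before the stretch. Its normalized counts were 32.7, 31.4 and 16.3 in het against 14.3, 18.6 and 15.4 in KO, which overlap (log2 fold change -0.65, SE 0.54). Its het density of 2.33 compares with 18.1 in the adjoining copy of the stretch. Beyond the near edge the next tested copy, of 949 bp (17544205 to 17545153, plus strand), had 19.0, 37.0 and 75.7 in het against 1.91, 16.3 and 7.70 in KO. It did not overlap between genotypes (log2 fold change -2.35, SE 0.77) and was not called.

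Lower values in KO thus continued past the near edge of the stretch without being called. Between it and exon 8, all 5 tested copies of intron 8 had negative log2 fold changes (-3.06 to -1.29), and the 14 listed copies there summed to 165, 183 and 288 in het against 29.6, 89.0 and 27.4 in KO. These sums did not overlap, at means of 212 ± 66.9 and 48.7 ± 35.0 (SD, n = 3). On the far side, toward exon 9, all 7 tested copies were negative (-2.13 to -0.30), but the 20 listed copies summed to 171, 179 and 366 in het against 109, 248 and 85.5 in KO and overlapped. All 28 tested copies of intron 8 were therefore negative, with a median of -2.04. Of these, 16 are copies of the stretch, which was chosen for lower values in KO. Outside it the median was -2.02 for the 5 toward exon 8 and -0.72 for the 7 toward exon 9.

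**Figure D4:**
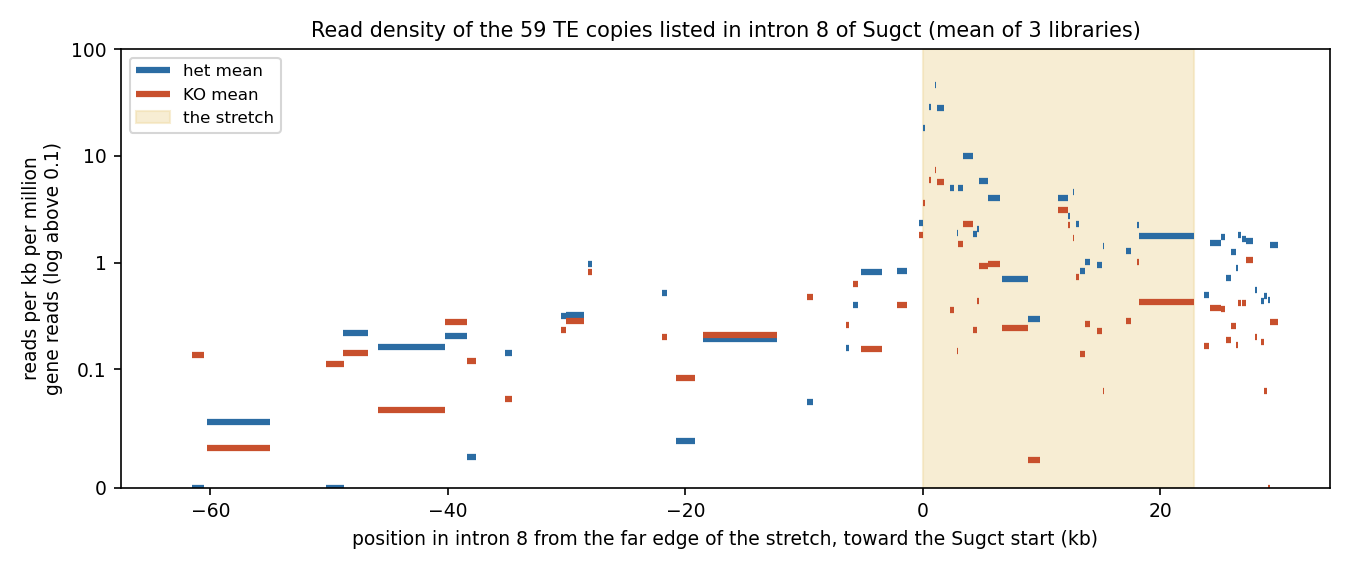
Mean read density (reads per kb per 1000000 gene reads, linear below 0.1 and log above) of the 59 listed copies of intron 8, each drawn at its length, against the distance from the far edge of the stretch toward the start of Sugct. The density in het rises from 2.33 in the copy just outside the shaded stretch to 46.1 in a copy of 82 bp within its first kilobases. Density was not corrected for reads that run past the ends of short copies. KO (orange) is lower than het in all 25 shaded copies.

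Intron 7, which lies nearer the start of Sugct than the stretch, was also negative in all 7 tested copies, with 0 called. Its 17 listed copies summed to 303, 270 and 616 in het against 145, 312 and 185 in KO, with overlap and with het replicate 3 highest. It held 2 of the 3 copies of the rest of Sugct with the highest mean. Of these, a copy of 259 bp (17560595 to 17560853) had 99.1, 83.0 and 74.8 in het against 37.2, 113 and 93.2 in KO (log2 fold change -0.21, SE 0.46). A copy of 1039 bp (17563499 to 17564537) had 30.6, 47.1 and 130 in het against 73.4, 51.9 and 35.1 in KO (log2 fold change -0.16, SE 0.55). Both overlapped, and both changed sign when a single library was left out or gene size factors were used. The other of the 3 lay in intron 12, a copy of 2511 bp (17230248 to 17232758, sense) with 14.8, 20.2 and 46.0 in het against 62.0, 132 and 44.5 in KO (log2 fold change 1.53, SE 0.56). There KO replicate 3 lay just below het replicate 3.

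Of the 35 tested copies in the rest of Sugct, limma called 4 higher (11.4%, beside 15.6% of all tested copies) and 0 lower (beside 0.735%). Of the negative ones 5 had an unadjusted p under 0.05, and edgeR called 1 lower and DESeq2 3. The median log2 fold change was -0.34, with 13 positive and 22 negative. In 7 of the 35 all KO libraries lay above all het libraries, as in 22.8% of all tested copies, and in 4 they lay below, as in 7.58%. Farther along the gene, in introns 9, 10, 12 and 13, most tested copies were positive. The 3 tested copies of intron 9 and the single one of intron 10 were positive, as were 5 of 6 in intron 12 and 2 of 3 in intron 13. Both tested copies of intron 6, between the stretch and the start, were also positive.

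Among the copies called higher, one of 5895 bp (16882402 to 16888296, intron 13, sense) had 4.22, 0 and 23.0 in het against 45.8, 54.2 and 72.7 in KO (log2 fold change 3.52, SE 0.96). A copy of 5256 bp (16939994 to 16945249, intron 13, antisense) had 9.49, 2.24 and 14.4 in het against 60.1, 67.3 and 86.4 in KO (log2 fold change 3.15, SE 0.63). It touches annotated exons of the antisense RNA Gm48503 and the pseudogene Gm48499. In both, KO lay wholly above het.

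The other called copies lay in introns 12 and 9. A copy of 3497 bp (17200521 to 17204017, sense) had 5.27, 3.37 and 19.2 in het against 52.5, 62.7 and 43.6 in KO (log2 fold change 2.70, SE 0.64). One of 5173 bp (17329251 to 17334423, antisense) had 2.11, 1.12 and 2.88 in het against 19.1, 29.4 and 28.2 in KO (log2 fold change 3.15, SE 0.78). Here het rested on at most 3 reads per library, and the fold change depends on the pseudocount (1.55 with a pseudocount of 10). Without het replicate 3 limma called 9 copies of the rest higher, without KO replicate 1 or KO replicate 2 it called 1, and without KO replicate 3 it called 2. Of the 4 called copies, the one starting at 16939994 kept its call whichever library was left out.

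Copies of the rest of Sugct are given by length next. Over 5 kb, 8 were tested, of which 3 (37.5%) were called higher, beside 58.3% of such copies in the whole table, and 6 had positive log2 fold changes. Of 27 tested copies of up to 5 kb, 1 was called higher, a share of 3.70% beside 7.14% of such copies in the whole table, and 0 were called lower (5 with an unadjusted p under 0.05), beside 0.839%. The stretch has no copy over 5 kb.

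**Figure D5:**
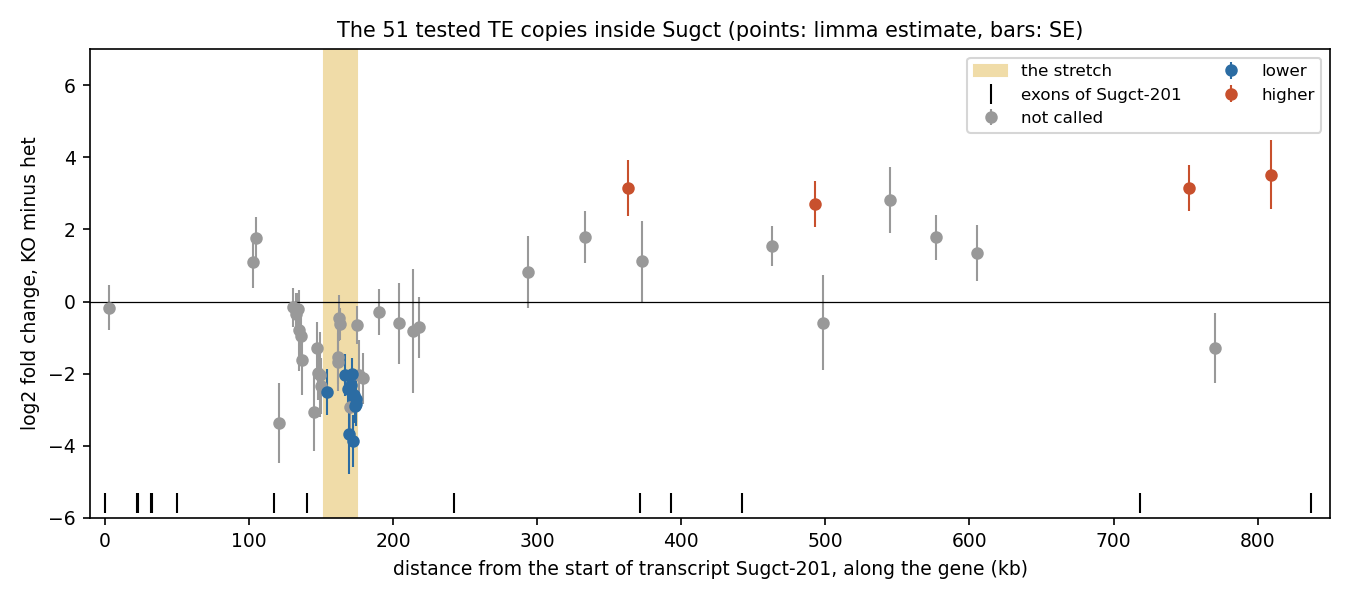
Fitted log2 fold change of KO against het (points, with SE bars) of the 51 tested copies inside Sugct against the distance from the start of Sugct-201; ticks mark its exons and shading the stretch. The 11 blue points, called lower, lie in the stretch, uncalled negative points flank it, and the 4 orange points, called higher, lie farther from the start than intron 8.

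Copies outside the gene were not used in choosing it and were tested. Of 151 listed copies within 500 kb of its ends 32 were tested, and limma called 5 higher and 0 lower, where it called 15.6% and 0.735% of all copies. Of the uncalled copies with a negative log2 fold change 2 had an unadjusted p under 0.05, edgeR called 0 lower and DESeq2 called 2 lower. On the downstream side, beyond the last exon of Sugct, 4 of 7 were higher, and the 37 listed copies there summed to 163, 112 and 307 in het against 596, 512 and 529 in KO. Every KO library was above every het library. Most of the KO sum, with a mean of 546, lay in the 4 called copies, whose KO means were 76.1, 46.3, 75.6 and 213. In 19 of the 37 copies the mean was lower in KO. On the upstream side 1 of 25 was higher and the sums overlapped, at means of 989 ± 61.1 in het and 989 ± 112 in KO (SD, n = 3).

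The 5 called copies were all over 5 kb long, a length at which 58.3% of all tested copies were called higher. Without KO replicate 1 limma called 3 flank copies higher. The strongest, of 6681 bp (16601342 to 16608022, minus strand), had 6.33, 8.97 and 10.5 in het against 238, 194 and 207 in KO (log2 fold change 4.49, SE 0.42, limma adjusted p 0.000398). On the upstream side a copy of 5809 bp (17916948 to 17922756, plus strand), which lies within the bounds of Rala, had 9.49, 11.2 and 36.4 in het against 243, 231 and 100.1 in KO (log2 fold change 3.41, SE 0.57, limma adjusted p 0.00201). The remaining 3 started at 16385220, 16408347 and 16499821, with limma log2 fold changes of 3.97, 2.73 and 2.29. In none of the 5 did the genotypes overlap.

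The enzymes that feed and follow SUGCT were examined from a list of 26 genes of glutarate, lysine and tryptophan breakdown and 4 CoA transferases and relatives. All 30 are listed and 29 were tested. Limma called 0 of them, where it called 0.473% of all genes, and 2 had an unadjusted p under 0.05. EdgeR and DESeq2 also called 0. The median log2 fold change was -0.08, with 14 positive and 15 negative.

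Echs1, a mitochondrial enoyl-CoA hydratase, had 781, 603 and 1164 normalized counts in het and 498, 533 and 361 in KO (log2 fold change -0.84, SE 0.30, limma p 0.0187 unadjusted and 0.540 adjusted). Each KO library lay under all het libraries, as in 5.57% of all tested genes. Hadh, the hydroxyacyl-CoA dehydrogenase that acts after it, had 644, 506 and 1584 in het against 490, 515 and 251 in KO (log2 fold change -1.01, SE 0.44, limma p 0.0437 unadjusted and 0.704 adjusted). Het replicate 3 was far above the others, and KO replicate 2 lay above het replicate 2. Aldh7a1, an aldehyde dehydrogenase of lysine breakdown, had means of 2477 ± 673 and 1751 ± 303 (SD, n = 3) and overlapped (log2 fold change -0.48, SE 0.26, limma p 0.0917 unadjusted and 0.813 adjusted).

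Gcdh, the dehydrogenase that oxidises the glutaryl-CoA made by SUGCT, had 703, 528 and 955 in het against 570, 634 and 385 in KO (log2 fold change -0.45, SE 0.30, limma adjusted p 0.863). The genotypes overlapped. Per length, the density of Gcdh was 8.89 ± 3.18 (het) and 6.26 ± 1.74 (KO; SD, n = 3), above the 1.04 and 1.36 of Sugct. Oxct1, which transfers coenzyme A from succinyl-CoA to acetoacetate, stood at 62.0 ± 18.8 and 63.1 ± 6.59 on that scale (SD, n = 3; limma log2 fold change 0.10, SE 0.23).

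The genes whose levels most resembled those of Sugct over the 6 libraries were Lancl3, Gm11999, Gm11627, Pfdn5 and Casp1, with Pearson r of log2(normalized count + 1) from 0.991 to 1.000 among 26004 genes. Lancl3 had 95.4, 96.6 and 145 in het against 133, 106 and 188 in KO, the same order of libraries as Sugct. The closest TE copies lay on chromosomes 14, 6, 3, 2 and 1, starting at 30379220, 38611359, 9533031, 17098125 and 43979515, with r from 0.988 to 0.991 among 49781 copies. None of them lies on chromosome 13. With 6 libraries many features reach such values: 56 genes and 65 copies shared the highest Spearman rho. These likenesses are descriptions over the same 6 libraries and carry no test.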

How the data were processed

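RNA libraries of P0 gonocytes, 3 Morc1 het and 3 KO, were compared. Both deposited tables hold a signal: read counts that the authors divided by 1 size factor per library, since 100% of values were whole multiples of 1 step per column (tolerance 0.001). Per the submitters' processing notes bcl2fastq 2.20, cutadapt 1.18, HISAT2 2.1.0, featureCounts 1.5.2 and DESeq2 1.26.0 were used with mm10 (GRCm38). Strand setting, treatment of reads that match several places and repeat annotation are not given in the sources used here, so values of single copies are uncertain.

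Genes were matched to GENCODE release M21 (35560 of 35666). Positions of copies were read as GRCm38. Each table was fitted whole in limma 3.58.1 (R 4.3.3; two-sided moderated test with a mean-variance trend) after log2(normalized count + 1), over the 26005 genes and 49781 copies with a mean of at least 10, with Benjamini-Hochberg adjustment and no covariates. Fold changes on this scale understate changes of low features. Every listed feature had at least 10 reads over the 6 libraries. A copy was inside Sugct when it lay wholly within the gene; counting any shared base gave the same 188 copies. Alternatives were other pseudocounts and filters, limma without trend, edgeR 4.0.16 and DESeq2 1.42.0 on recovered reads, gene size factors, each library left out, and a replicate block. The fits were also run on simulated reads with known fold changes and the same spread for every feature and library. Spread in these libraries was uneven, so that run does not give the error rates of the calls here. Replicates differed by more than counting noise, for which a mean chi-square of 1 per gene is expected: het replicates 1 and 2 gave 11.0 and other pairs within a group at least 70.7. Pairs across genotypes ran from 23.9 (het replicate 2 with KO replicate 1) to 120 (het replicate 3 with KO replicate 3). Some pairs across genotypes were thus closer than most pairs within a group. Depth limits the low copies. Each SE comes from the limma fit and so measures the spread between these libraries, not counting error only.

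Named were Sugct, Morc1, tested neighbours (1 is not reported here), tested copies of the stretch, called and the 3 most abundant other copies, Gcdh with the 3 pathway genes of smallest p, and the 5 genes and 5 copies most like Sugct. Flank copies, Oxct1 and the copies at the edges were added after their values were seen. Members and lists were chosen with earlier results of these data known.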

Additional observations from a re-analysis of the deposited data

How the results depend on the processing

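Sugct kept a positive difference in all alternatives (0.12 to 0.69), and the summed stretch a negative one (-2.59 to -2.11 over libraries left out). The 16 tested copies of the stretch were negative in all 233 comparisons, 210 of them on the same side of the threshold. Those comparisons refit the libraries on which the stretch was chosen, so the shared sign is a description and no support. The number of stretch copies called lower, 11, ran from 7 (without het replicate 1) to 11 over libraries left out. Copies of the rest called higher (4) numbered 0 with a mean of at least 50, which left 3 tested, 7 with gene size factors and 1 to 9 over libraries left out. Copies of the rest called lower (0) numbered 3 with a pseudocount of 10, 2 without a filter, 1 in limma without trend, 1 in edgeR, 3 in DESeq2, 2 with the replicate block and 0 to 3 over libraries left out. Flank copies called higher (5) numbered 2 with a mean of at least 50 (3 tested) and 3 (without KO replicate 1) to 6 over libraries left out, and those called lower (0) numbered 2 in DESeq2 and 0 to 2 over libraries left out. Morc1 lost its call in limma without trend (-2.03, adjusted p 0.0891), and its log2 fold change ran from -2.31 to -1.88 over libraries left out. The copy at 17560595 to 17560853 reversed without KO replicate 1 (0.27, range -0.52 to 0.27 over libraries left out) and with gene size factors (0.12), and that at 17563499 to 17564537 without het replicate 3 (0.42), without KO replicate 3 (0.10; range -0.61 to 0.42) and with gene size factors (0.16). The causes were not tested. Same-numbered samples did not deviate together (r of 0.138, -0.163 and -0.0438 over genes), so the numbers were not taken as pairs. The replicate block left 11 stretch copies lower, 4 of the rest and 6 flank copies higher, and 0 neighbours and 0 pathway genes called. Neighbours and pathway genes had 0 called in every alternative run. Low read numbers limit the precision of single copies.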
